A study of Oryza sativa with 8 samples.

Results

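A set of 78 probe sets read higher in mhz7 than in wild-type (WT) rice in every tissue and gas, out of 57258 probe sets measured. They were chosen by 3 measured conditions. The log2 difference mhz7 minus WT was at least 0.8 in each of 4 pairs of arrays (shoots in ethylene, shoots in air, roots in ethylene and roots in air), the mean signal over the 8 arrays was at least 200, and ethylene changed the signal by less than 1 on the log2 scale in WT root and in WT shoot. Of 125 probe sets that passed the first 2 conditions, 39 were removed by the third, and 8 more probe sets, of the 7 genes JAZ9, JAZ10, JAZ11, JAZ13, CML31, WRKY71 and 4CL5, were left out by name. Of the 78, 55 are assigned to 1 gene each and cover 52 genes, of which 8 carry a symbol and 44 only a locus number. The other 23 have no gene listed, and 1 of these is a reporter control of the array and not a rice transcript.

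Ethylene is a gaseous hormone that plants sense with receptors on the endoplasmic reticulum, and EIN2 carries the signal from those receptors to transcription factors in the nucleus. MHZ7 is listed as a synonym of EIN2, and mutants that lose it respond weakly to ethylene. Dark-grown rice seedlings answer ethylene in opposite ways in their organs, with root growth held back and the coleoptile lengthened.

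Samples were mhz7 shoots and roots, each in ethylene and in air, and the same organs of WT in the same gases. Seeds germinated in the dark at 37 °C, and seedlings 3 days old were then treated in the dark at 28 °C, those in ethylene with 10 ppm for 8 h. Each of the 8 conditions was measured once, on an Affymetrix rice array, so a difference between 2 arrays has no replicate check. The sample titles write the mutant's name in capitals, as MHZ7, while the study's design text calls the same samples mutant, and they are called mhz7 here. The labels give neither the lesion nor the line of these plants, nor how many seedlings were pooled. In whole roots and shoots, fewer cells of a type and less RNA per cell cannot be told apart. In what follows a signal is the array intensity after scaling, on a linear scale, and signals under 100 count as below the floor and have no order among themselves. A floor of 100 was applied before each log2 difference, so a difference from a sample below it is a lower bound, and a fold from it is given as "at least". Where 8 signals follow a gene, each genotype is given in the order shoot in ethylene, shoot in air, root in ethylene, root in air.

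Signals of light-harvesting and Rubisco small subunit genes were high in shoots, and those of nicotianamine synthase, aquaporin and silicon transporter genes were high in roots, in both genotypes. EIN2 itself, which the choice of members leaves out, read 1574, 1532, 2462 and 2792 in mhz7 and 747, 859, 1064 and 1649 in WT, which does not test the genotype labels because the lesion is not given. The 3′ signal of the actin control divided by its 5′ signal, a ratio that climbs as RNA is degraded, was 35.6, 25.7, 26.1 and 21.8 in mhz7 and 28.1, 18.3, 20.7 and 20.4 in WT, so it was higher in mhz7 in 4 of 4 pairs. On a second set of actin controls it was 13.5, 9.55, 9.32 and 6.81 in mhz7 and 8.26, 6.34, 6.80 and 6.62 in WT. The GAPDH ratio was not higher in mhz7 in 3 of the 4 pairs, at 1.99, 2.03, 2.23 and 2.44 in mhz7 and 2.08, 2.07, 2.21 and 3.91 in WT. The part of RNA quality in the members' differences was not tested.

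The members had a median signal of 735, 767, 1733 and 1157 in mhz7 and of 198, 245, 341 and 275 in WT, while the median of all 21444 probe sets with a mean signal of 200 or more lay between 752 and 781 on every array. The members were thus near the typical signal of the array in mhz7 shoots, above it in mhz7 roots and well below it in WT. No member was below the floor on an mhz7 array, 19 were below it on at least 1 WT array and 5 on all 4 WT arrays. These levels follow from how the members were chosen and are a description.

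**Figure D1:**
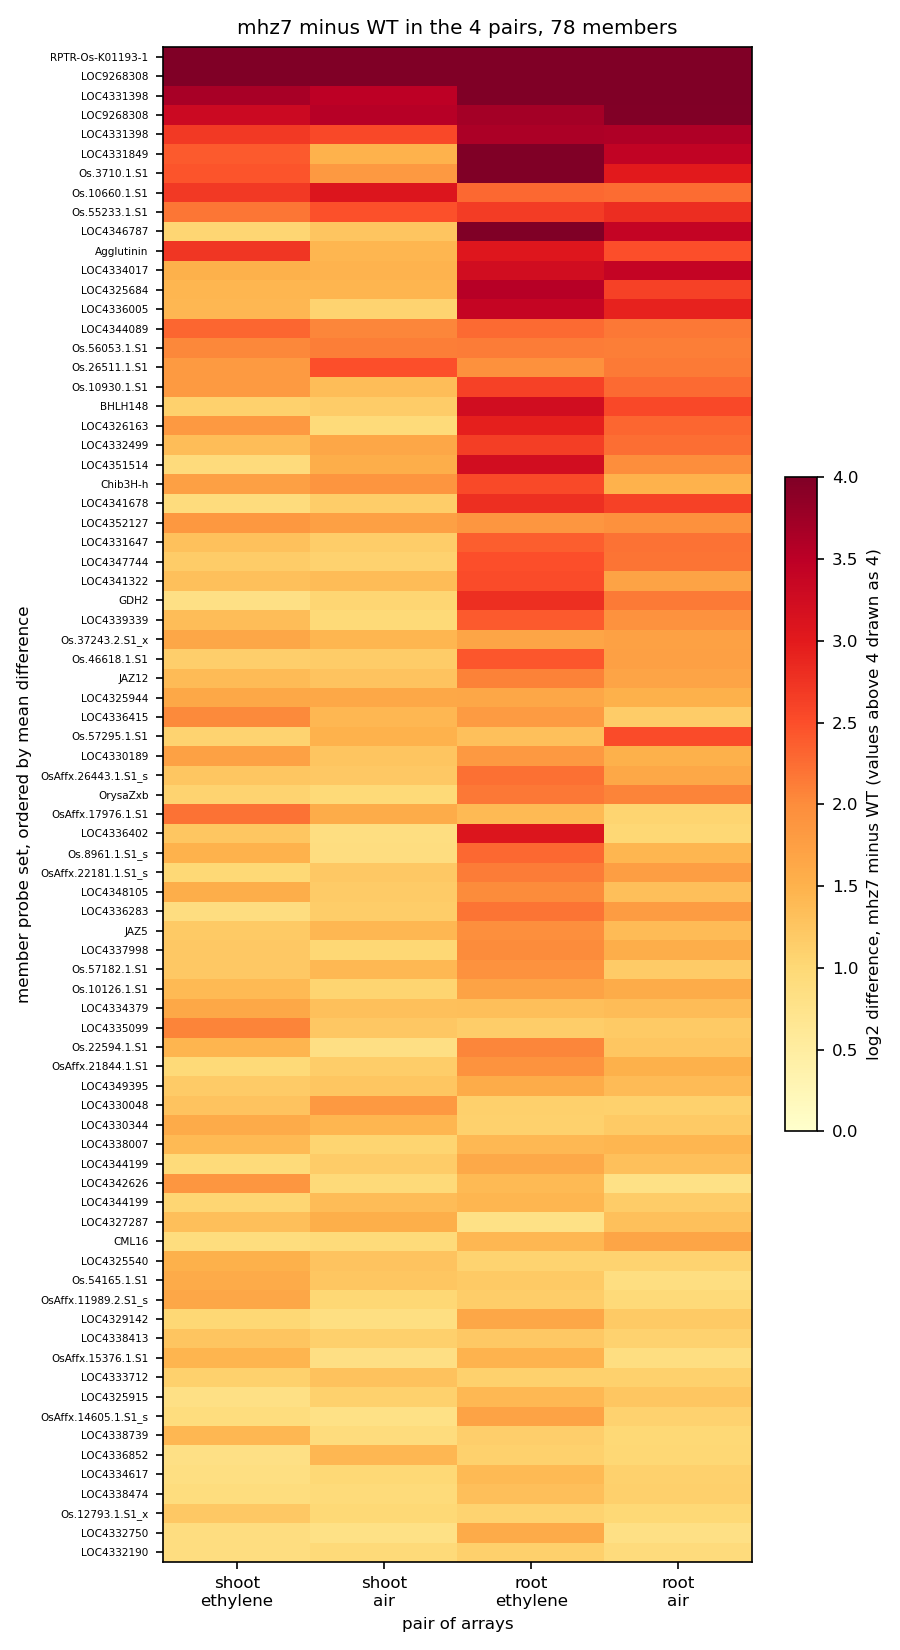
Log2 difference mhz7 minus WT of each of the 78 members (rows) in the 4 pairs of arrays (columns), with 1 array per condition. Every cell is at or above 0.8 because the members were chosen so, and the root in ethylene column is the darkest, with a median of 1.98.

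The median difference was 1.39 for shoots in ethylene, 1.25 for shoots in air, 1.98 for roots in ethylene and 1.56 for roots in air. At least 2-fold higher in mhz7 were 63, 61, 77 and 70 of the 78 in these pairs, where 2.65%, 1.61%, 3.05% and 1.68% of the 21444 probe sets were 2-fold higher. All 4 pairs were 2-fold or more apart for 49 members and 4-fold or more for 9, and the first 2 conditions together held for 0.583% of the 21444. The mhz7 arrays all stood above all WT arrays for 54 of 78 members, against 2.37% of all probe sets. The choice of members used these contrasts, so nothing is read from the counts. Just inside the 0.8 limit were LOC4332750, LOC4342626 and a probe set without a gene, each with a smallest difference of 0.80. Just outside were LOC4339092 at 0.797, LOC4323909 at 0.791 and LOC4348540 at 0.788.

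The most extreme member was the reporter control RPTR-Os-K01193-1_at. It read 4733, 5497, 2699.9 and 2729.6 in mhz7 and 17.3, 16.5, 21.8 and 19.5 in WT, so it was bright in every mhz7 sample and below the floor in every WT sample. The difference was at least 47.3-fold and 55.0-fold in shoots and at least 27.0-fold and 27.3-fold in roots. The other 63 reporter probe sets did not exceed 148 on any array and differed between genotypes by no more than 0.26 on the log2 scale. The sources used here do not annotate the transcript this control detects. The labels do not say whether the mhz7 plants carry introduced DNA, so the mutation and any other difference between the plants cannot be told apart in the mhz7 minus WT values.

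LOC9268308 had the next largest difference, with signals of 2335, 2607, 3632 and 4218 in mhz7 and 63.8, 57.6, 99.9 and 126 in WT. Only its WT signal in roots in air passed the floor, and the mhz7 signal there was 33.5-fold higher. A second probe set of the gene read 992, 1161, 1585 and 1953 in mhz7 and 89.9 to 124 in WT. LOC4331398 read 1269.9, 1127, 2155 and 2057 in mhz7 and 15.5 to 24.6 in WT, at least 11.3-fold higher in each pair. Its second probe set, at 587 to 1238 in mhz7 and 12.6 to 14.7 in WT, was also below the floor in all 4 WT samples. For both genes every mhz7 sample stood above every WT sample on each probe set.

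The other members with a 4-fold difference in all pairs were LOC4344089 and 3 probe sets without a gene. LOC4344089 was bright in both genotypes, at 4536, 3769, 3763 and 3813 in mhz7 and 917, 911, 777 and 850.3 in WT. One of these unassigned probe sets was at 409 to 438 in mhz7 and below the floor in all WT samples, and another was at 453 to 702 in mhz7 and likewise below it. The last read 819.9 to 869.6 in mhz7 and 103 to 182 in WT. All 9 probe sets of this 4-fold group changed by no more than 0.5 with ethylene in either organ of mhz7, against 21 of the other 69 members. The 9 include the reporter control and both probe sets of LOC9268308 and of LOC4331398. The 4-fold cut was set after the data were seen, on the values that chose the members. The share of all probe sets that changed so little was not computed, so the counts are a description. In the group the ethylene change lay between -0.30 and 0.07 in mhz7 roots and between -0.29 and 0.27 in mhz7 shoots.

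**Figure D2:**
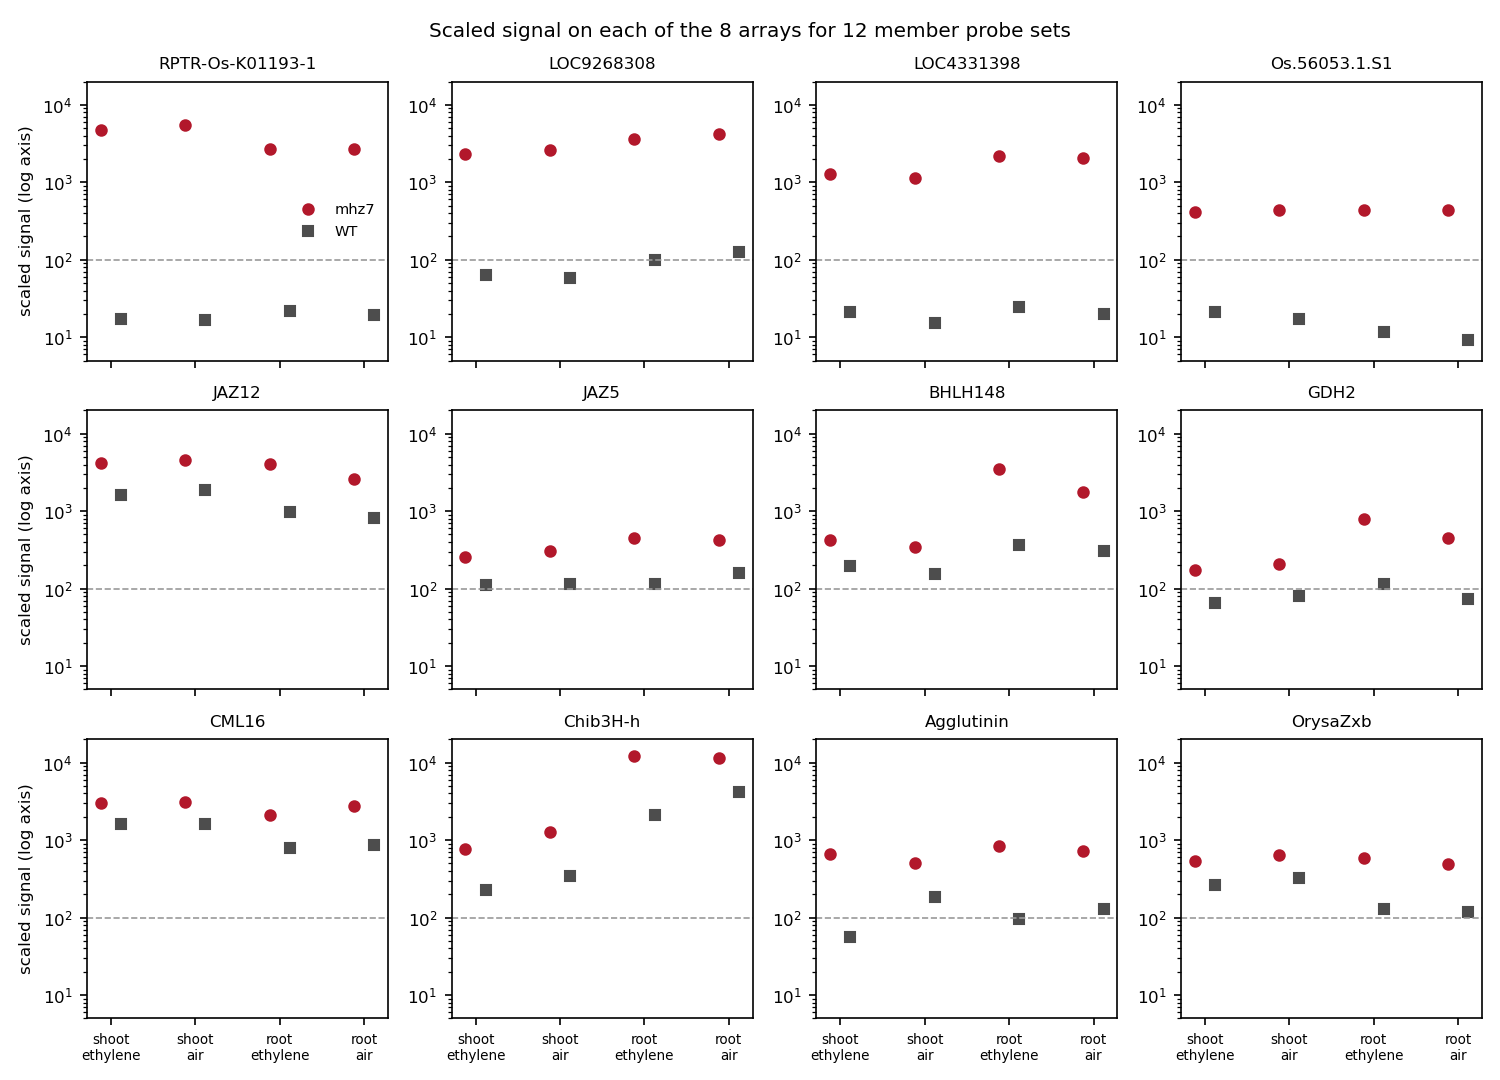
Scaled signal (log axis) of named members on the 8 arrays, mhz7 beside WT for each tissue and gas, with 1 array per point and a line at the floor of 100. LOC9268308 and LOC4331398 stand near or below the floor in WT and far above it in mhz7, while JAZ12 and CML16 are well measured in both genotypes.

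JAZ proteins are repressors that hold back transcription factors of the jasmonate response until the hormone triggers their degradation, and genes for several of them are themselves switched on by jasmonate. JAZ12 read 4181, 4545, 4105 and 2633 in mhz7 and 1600.1, 1873, 971 and 824 in WT. JAZ5 was much dimmer, at 259.5, 307, 450.3 and 423 in mhz7 and 113, 114, 116 and 161 in WT. For both genes every mhz7 signal exceeded every WT signal, and the mean log2 differences were 1.61 and 1.49. BHLH148 encodes a helix-loop-helix factor that in rice binds a JAZ protein. It read 427, 347, 3471 and 1779 in mhz7 and 198, 156, 367 and 304 in WT, a 9.46-fold difference for roots in ethylene and 2.16-fold for shoots in ethylene. Its mhz7 signals in shoots exceeded the WT shoots, but the mhz7 shoot in air stood below the WT root in ethylene.

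The jasmonate list holds 30 measured genes, found by symbol and represented by their brightest probe set. It includes GATA17, GATA18 and GATA20, which entered by another of their names and also stand among the other transcription factors. Of the 30, 7 were higher in mhz7 by 0.8 or more in all pairs, and none was lower by as much. The list's median mean difference was 0.44, and over all 13839 genes tested it was 0.00, with 80 genes (0.578%) higher in all pairs and 36 lower. All 7 were among the 12 JAZ genes, whose median was 1.55. Of these 7, JAZ12 and JAZ5 are members, JAZ9, JAZ10, JAZ11 and JAZ13 were left out by name, and JAZ8 was removed by the limit on ethylene changes in WT. Some of them are neighbours in the reference assembly's gene order. JAZ9, JAZ11 and JAZ10 lie side by side, and 3 genes lie between JAZ13 and JAZ12. Among the remaining genes of the list, the receptor gene COI1 had a mean difference of -0.28. The synthesis gene AOS had one of 0.99, with 0.36 in shoots in air. In roots in ethylene 10 of the 30 were at least 2-fold higher and 1 was 2-fold lower, OPR-1 at -1.57. Roots in air gave the same counts, with OPR-1 at -1.28. Shoots had 10 genes 2-fold higher in ethylene and 7 in air, and none 2-fold lower. The JAZ genes were singled out with their values known.

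Calmodulin-like proteins sense calcium. CML16 read 2976, 3055, 2133 and 2746 in mhz7 and 1601, 1594, 793 and 863 in WT, so its lowest mhz7 signal still stood above its highest WT signal. The difference was 1.43 and 1.67 in roots and 0.89 and 0.94 in shoots. Of 19 calmodulin-like genes, 2 were higher by 0.8 in all pairs, CML16 and CML31, and CML31 is left out of the members by name. The median over the 19 was -0.02. Over the 64 calcium signalling genes 2 were higher in all pairs, with a median of 0.00. Of all 13839 genes tested, 0.578% were higher in all pairs. The choice of members used these differences, so the counts are a description.

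Chib3H-h, a homologue of class III chitinases, which cut the chitin of fungal walls, had the highest single signal of any member. It read 763, 1262, 12289 and 11596 in mhz7 and 228, 342, 2108 and 4128 in WT. The organs lay so far apart that WT roots exceeded mhz7 shoots, while within each organ both mhz7 samples exceeded both WT samples. Agglutinin, a lectin gene, read 659, 502, 832 and 722 in mhz7 and 55.4, 185, 95.1 and 129 in WT. Its mean difference was 2.43, and its lowest mhz7 signal was above its highest WT signal.

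GDH2 encodes a glutamate dehydrogenase, an enzyme that links amino acids to carbon metabolism. Its member probe set read 176, 206, 789 and 445 in mhz7 and 65.2, 80.1, 114 and 73.1 in WT. Other probe sets of the gene did not show the shoot difference. The brightest one, with a mean signal of 1698, differed by 0.94 and 0.43 in roots and by -0.01 and 0.01 in shoots, and another gave 1.35 and 1.31 in roots and 0.34 and 0.16 in shoots. OrysaZxb, for which no role is given here, read 543, 637, 583 and 493 in mhz7 and 259.8, 324, 129.7 and 117 in WT.

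Among the other lists, 2 of 74 other transcription factor genes, 2 of 67 cell wall and carbohydrate genes, 1 of 22 cytochromes P450 and 1 of 23 phenylpropanoid genes were higher by 0.8 in all pairs on their brightest probe set. The list of 23 touch- and wound-response genes consists of the 19 calmodulin-like genes and 4 others, and its 2 such genes are again CML16 and CML31. On the brightest probe set none was among 61 kinase, 79 transporter, 52 phosphatase, 16 amino acid (GDH2, a member on a dimmer probe set, is one of them), 13 defence, 8 ubiquitin, 6 AP2/ERF and 6 glycosyltransferase or glutathione S-transferase genes. Over all 13839 genes tested, 80 (0.578%) were higher by 0.8 in all pairs, and these list counts are a description. Many member genes lack a symbol and so can enter no list. None of the 52 assigned member genes lay within 10 genes of EIN2 in the reference assembly's gene order, and the 23 members without a gene were not placed.

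The size of the difference varied between organs. It was larger in root than in shoot in both gases for 51 members, smaller in both for 15 and mixed for 12. In 15 members the root difference exceeded the shoot difference by 1 or more on the log2 scale, with medians of 2.70 in root and 1.23 in shoot, and in no member was the reverse true. These differences were used to choose the members, and the shares over all probe sets were not computed, so the counts are a description. LOC4346787 read 306, 292, 2984 and 1307 in mhz7 and 149, 122, 178 and 124 in WT. LOC4334017 read 285, 278, 2946 and 1650.3 in mhz7 and 69.6, 78.0, 311 and 156 in WT. LOC4331849, at 915, 382, 2268 and 1311 in mhz7 and 174, 135, 68.9 and 122 in WT, was at least 22.7-fold higher in roots in ethylene. In these genes both mhz7 roots stood above the other 6 samples, and the shoots differed less.

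At the other end, the 4 differences lay within 0.5 of each other in 16 members, with medians of 1.33 in root and 1.31 in shoot. LOC4352127 was one of them, at 1669, 3071, 3582 and 3387 in mhz7 and 461, 914, 987 and 883 in WT, or 3.36-fold to 3.84-fold. LOC4332190 had the smallest mean difference, 0.97, and read 367, 374, 397 and 347 in mhz7 and 181 to 199 in WT. That gene's brightest probe set, with a mean signal of 4692, differed by 0.06 to 0.33, and its other one by -0.27 to 0.19, so the difference rests on 1 of 3 probe sets. Of 7 further probe sets of member genes with a mean signal of 200 or more, 4 read higher in mhz7 in all pairs, and their median mean difference was 0.57.

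**Figure D3:**
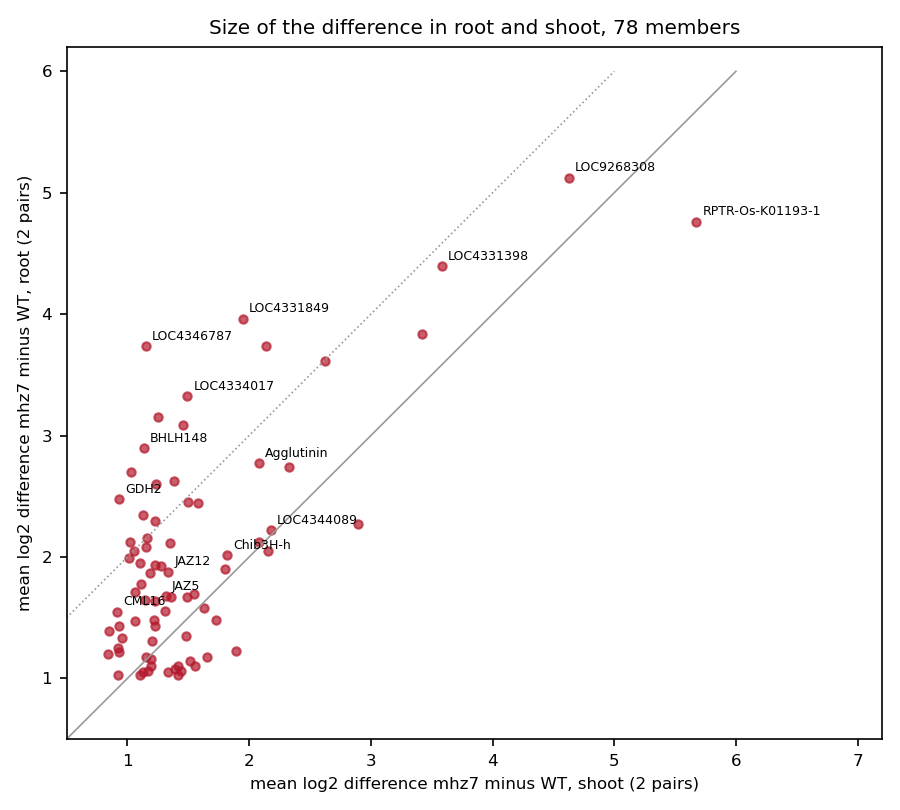
Mean log2 difference mhz7 minus WT in root (vertical) against shoot (horizontal) for the 78 members, each over 2 pairs of arrays. The solid line marks equal differences and the dotted line a root difference larger by 1. Of the members, 15 lie at or above the dotted line, LOC4346787 and BHLH148 among them.

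The difference between shoot and root was not a condition of the choice. It was tested over the 4 pairs that share genotype and gas, with limma across all 21444 probe sets. The choice did require mhz7 signals above the floor in both organs, and the members' lowest were 176, 206, 249 and 264. A probe set below the floor in either organ of mhz7 could not be a member, so the shares that follow are a description. Shoot signals were higher for 10 of 78 members (12.8%, against 25.9% of all probe sets) and lower for 30 (38.5%, against 41.5%), at a Benjamini-Hochberg adjusted p under 0.05. The members' median difference shoot minus root was -0.50, and that of all probe sets was -0.15. By pair the members' median was -0.94 in mhz7 in ethylene, -0.33 in mhz7 in air, -0.22 in WT in ethylene and 0 in WT in air. With mhz7 arrays only, 8 members were higher in shoot and 40 lower, and with WT arrays only 11 and 23. The mhz7 levels in both organs were used to choose the members. For the 5 members below the floor in all WT samples, the WT pairs enter this fit with a difference of 0.

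Chib3H-h was the member with the largest difference, at -3.50 on the log2 scale for shoot minus root (SE 0.156, limma adjusted p = 3.3e-05). The difference lay between -4.01 and -3.20 in the 4 pairs, and the WT and mhz7 pairs overlapped. LOC4325915, with 1126, 851, 10007 and 5444 in mhz7 and 639.9, 397, 3740.2 and 2302 in WT, fell by 2.73 in shoot (SE 0.123, limma adjusted p = 3.49e-05). BHLH148 was lower in shoot, at -1.81 (SE 0.403, limma adjusted p = 0.0111), with -3.02 and -2.36 in mhz7 pairs and -0.89 and -0.97 in WT pairs. LOC4351514 stood at -2.44, LOC4334017 at -2.06 and LOC4347744 at -1.76, all past the threshold. JAZ5 was also lower, at -0.45 (SE 0.132, limma adjusted p = 0.0293).

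Higher in shoot were JAZ12, at 0.68 (SE 0.191, limma adjusted p = 0.0249), and CML16, at 0.63 (SE 0.159, limma adjusted p = 0.0170). Both were higher in shoot in 4 of 4 pairs, although JAZ12 differed by only 0.03 in mhz7 in ethylene. The largest difference in this direction was that of LOC4335099, which read 2724, 2834, 406 and 420.1 in mhz7 and 645, 1212, 182 and 183 in WT. Its shoot signal was higher by 2.51 (SE 0.183, limma adjusted p = 0.000194). LOC4327287 followed at 2.18, LOC4336402 at 2.13 and the 2 probe sets of LOC4344199 at 2.12 and 2.07. GDH2 at -0.87, LOC4346787 at -1.43 and OrysaZxb at 0.68 did not pass the threshold.

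**Figure D4:**
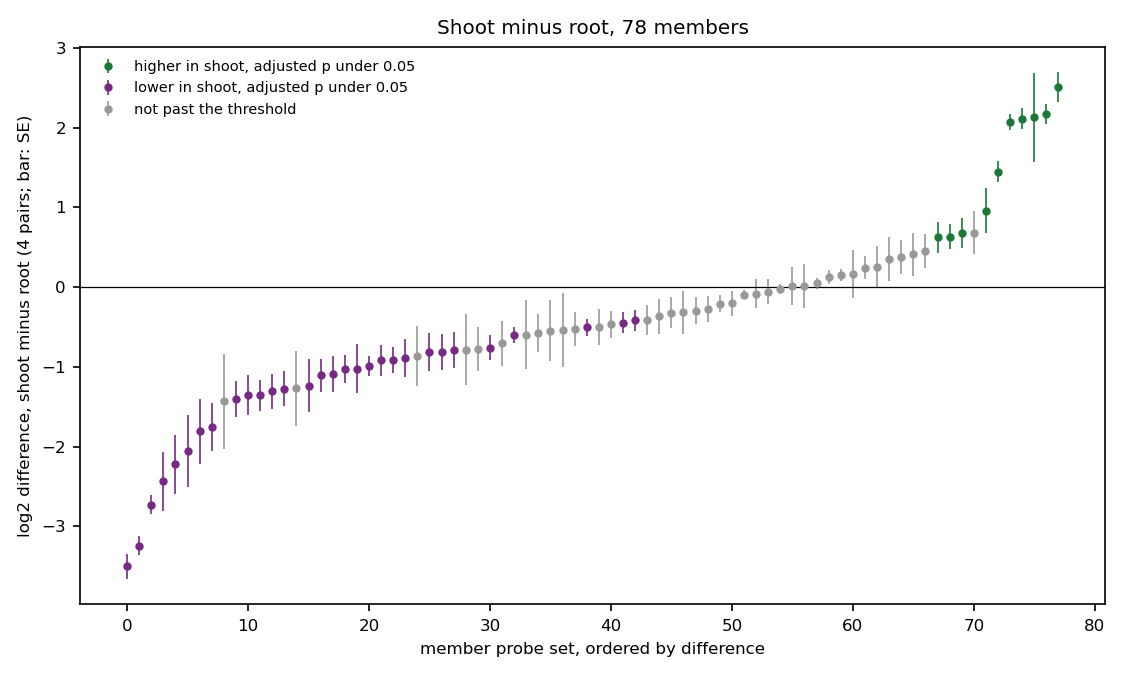
Log2 difference shoot minus root of the 78 members, ordered by size, with the limma standard error over 4 pairs as bars. Colour marks the adjusted p: 10 members are higher in shoot, 30 lower and 38 not past the threshold.

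Ethylene was also set against air within mhz7. The choice of members limited the ethylene change in WT, and it used the mhz7 signals in both gases, so the choice shapes the counts that follow and they are a description. In mhz7 roots the members' median change was 0.63, against 0 over all probe sets, and 64 of 78 were above 0 (82.1%, against 48.8% of all). At least 2-fold higher in ethylene were 10 members (12.8%, against 0.261% of all), and 1 was 2-fold lower (0.802% of all). In mhz7 shoots the median was -0.13, against 0.02 over all probe sets, and 20 members were above 0 (25.6%, against 54.4% of all), with 1 member 2-fold higher (0.0513% of all) and none lower (0.429% of all). In WT, where the limit applies, the medians were 0.15 in root and -0.21 in shoot.

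The change pointed up in mhz7 roots and not in mhz7 shoots for 46 members, up in both for 18, down in both for 12 and down in root only for 2. The shares of these classes over all probe sets were not computed. Many of the changes were small: 30 of the 78 members changed by no more than 0.5 in both organs of mhz7. The largest change was that of LOC4336402. Its mhz7 signals were 1577 in roots in ethylene and 264 in roots in air, and 1714 and 2342 in shoots in ethylene and air. Its WT signals were 186 and 131 in roots and 724 and 1281 in shoots, in the same order of gases. On the log2 scale the change was 2.58 in mhz7 roots and 0.50 in WT roots, and -0.45 in mhz7 shoots and -0.82 in WT shoots. The mhz7 root in ethylene was thus near the level of the mhz7 shoots, whereas the mhz7 root in air was not.

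The other members 2-fold higher with ethylene in mhz7 roots were LOC4346787 (1.19), LOC4341678 (1.07), LOC4337998 (1.06), LOC4338413 (1.05), LOC4348105 (1.02) and 4 probe sets without a gene, at 1.06 to 1.33. For LOC4338413 this rests on 1 of 3 probe sets, since the other ones changed by 0.49 and 0.33 in mhz7 roots, and the brighter of them differed between mhz7 and WT by -0.17 in roots in ethylene. The probe set without a gene at 1.06 shares its array target name with that of LOC4337998, so the 2 may measure 1 transcript. In shoots LOC4331849 alone passed 2-fold, with 915 in ethylene and 382 in air in mhz7, a change of 1.26. A probe set with no gene listed was the single member 2-fold lower in mhz7 roots, at 249 in ethylene and 803 in air. Among the genes with a symbol, the root change was 0.96 for BHLH148, 0.83 for GDH2, 0.64 for JAZ12 and 0.09 for JAZ5, and CML16 stood at -0.36. All 15 members with a root difference larger by 1 or more changed upward in mhz7 roots, by 0.24 to 1.33, as did 64 of all 78 members. The mhz7 root signals were used to pick these 15, so nothing is read from their direction.

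Over both organs of mhz7, limma called no member higher and none lower in ethylene, as it called none of the 21444 probe sets (0.0% in each direction). The lowest adjusted p among the members was 0.519. At an unadjusted p under 0.05 it gave 5 members higher and 5 lower, and 1264 of all probe sets. This fit has 2 pairs and 1 residual degree of freedom, and it asks for the same change in root and shoot.

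**Figure D5:**
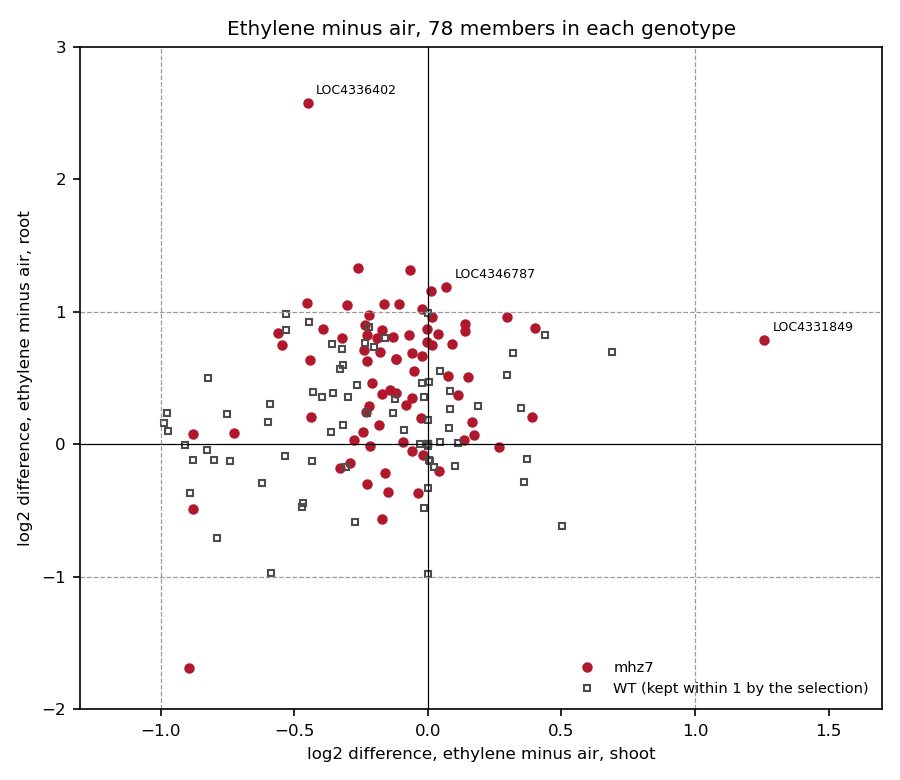
Log2 difference ethylene minus air in root (vertical) against shoot (horizontal) for the 78 members in mhz7 (filled circles) and WT (open squares), with 1 array per condition. Dashed lines mark 2-fold. In mhz7, 64 members lie above 0 in root, and LOC4336402 is the farthest up at 2.58. WT points were kept within 1 by the choice of members, and those at 0 include members below the floor.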

How the data were processed

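The authors deposited linear intensity values for each probe set on each array, made with MAS5 per the submitters' processing notes. The sources used here give neither its version nor its scaling target. RNA (5 µg per sample) was hybridized per the labels' protocols. Of 57381 probe sets, 123 controls were set aside. Each array was scaled to a mean of 500 without its highest and lowest 2% (factors 2.00 to 2.10), and a floor of 100 was set (51.5 to 53.1% of each array lay under it) before taking log2. The number of arrays limits the precision.

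The array annotation assigns 1 gene to 22436 probe sets, several to 95 and none to 34727. Symbols came from the ASM3414082v1 assembly's gene table, used for names and gene order only. These tables hold no descriptions, so the gene lists rest on symbol patterns. No sequences were used here.

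Fits used limma 3.58.1 in R 4.3.3 with the pair or tissue as a block and Benjamini-Hochberg adjustment over 21444 probe sets. Both fits were also run on simulated data for 21444 probe sets. There the spread was drawn as limma's model assumes, and each change was the same in every pair. The tissue fit recovered 66 of 100 changes of log2 size 1 and 95 of 100 of size 2, with 4 false calls. The ethylene fit in mhz7 recovered 83 and 97, with 11 false calls. These rates do not show what either fit can find in the measured data, where a change may differ between organs. Other values came from Python 3.11.15 with numpy 2.4.6, pandas 2.3.3, scipy 1.17.1 and matplotlib 3.10.9.

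The members and lists were chosen with earlier results of these data known. Genes are named where they carry a symbol, are among the 10 largest or 5 smallest differences, the 5 highest or lowest signals or the 6 largest shoot minus root differences in each direction, changed 2-fold with ethylene in mhz7, belong to a list (up to 4), lie next to the 0.8 limit or have several member probe sets. The probe sets without a gene, LOC4352127, COI1, AOS, OPR-1, the GATA genes and the genes used as tissue and RNA controls were named after their values were seen.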

Additional observations from a re-analysis of the deposited data

Results flagged for a closer look

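The reporter control RPTR-Os-K01193-1_at is no rice gene and was read in mhz7 shoots at 4733 in ethylene and 5497 in air and in mhz7 roots at 2699.9 and 2729.6, while all WT samples were below the floor of 100. No source used here names its target, and the labels do not say whether the mhz7 plants carry introduced DNA.

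Ethylene minus air pointed in opposite directions in the organs of mhz7 for 48 members, and the share over all probe sets was not computed. In 3 of those with a gene listed it was at least 1 in size in one organ and at least 0.25 in the other. It was -0.45 in shoot and 2.58 in root for LOC4336402, -0.30 and 1.05 for LOC4338413, and -0.45 and 1.07 for LOC4341678. For LOC4338413 the gene's other probe sets gave -0.45 and 0.49, and -0.21 and 0.33. The difference between organs was not tested, since each condition has 1 array.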

How the results depend on the processing

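Of 51 alternative values, 43 stayed within 1.5 times the reported count. The 43 include the counts of members called for ethylene in mhz7, which were 0 throughout. That fit called none of the 21444 probe sets in the main setting, so the agreement of these counts adds little. The number of members was 49 with a difference of 1.0 in all pairs and 141 with 0.6, and 57 to 106 under the other settings, which included quantile normalization (75, 74 of them shared) and the deposited scaling (66, all shared). Leaving out the shoot ethylene pair, which holds the array with the highest actin ratio, gave 106, and leaving out reporter controls gave 77. These 2 settings, and the tissue fit without the mhz7 ethylene arrays (13 higher in shoot, 25 lower), were chosen after seeing the data. Members higher in shoot than root numbered 5 without a minimum signal and 6 without the pair block, and those lower numbered 8 and 8. The cause of the drop without a minimum was not tested. At 1.5-fold in place of 2-fold, 41 members changed with ethylene in mhz7 roots and 5 in mhz7 shoots, against 11 and 1. No member was called for ethylene in mhz7 under any of the settings run. The pairs in the fits are arrays that share genotype and gas, or tissue. A fit paired by replicate number could not be made, since the labels carry none. Signals below the floor limit what the WT levels can show.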
